A study of Mus musculus with 11 samples.

Results

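The genes of the TGF-beta, Nodal and BMP signalling pathway were examined in mouse embryonic stem cells (ESCs) in which the Polycomb protein CBX6 was mapped on chromatin or depleted. The set holds 46 genes, chosen by name as ligands, antagonists, receptors, SMADs, ID targets and 1 protease, and all 46 were found by symbol among the 23265 gene symbols of the expression table. By class these are 8 Nodal and TGF-beta ligands, 8 BMP ligands, 7 antagonists, 11 receptors or co-receptors, 7 SMADs, 4 ID genes and the protease Bmp1.

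Ligands of this family bind pairs of type I and type II serine/threonine kinase receptors, which phosphorylate receptor SMADs that enter the nucleus together with Smad4. Nodal, activin and TGF-beta ligands act through Smad2 and Smad3, whereas BMPs act through Smad1 and Smad5 and induce the Id genes, which encode helix-loop-helix proteins that lack a DNA-binding region and block lineage factors. In ESCs kept in serum and LIF, BMP signals and the Id genes are known for restraining neural differentiation, and Nodal with its co-receptor Tdgf1 (Cripto) and its inhibitors Lefty1 and Lefty2 forms a feedback loop.

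All cells were of the mouse ESC line E14Tg2A or derived from it, grown without feeders in serum and LIF. For RNA-seq, 2 libraries came from ESCs infected with a lentivirus for a control hairpin (shCtl) and 2 from ESCs infected with a virus for a hairpin against Cbx6 (shCbx6), both after drug selection. The labels do not say which Cbx6 hairpin a library received, nor whether the 2 replicates of a group were separate cultures, so p-values measure the spread between these libraries. For ChIP-seq, CBX6 was precipitated with anti-HA in 2 replicates of an ESC line whose endogenous Cbx6 gene carries a C-terminal triple HA tag (a line grown from a single sorted cell), and CBX7 and RING1B were precipitated once each with their own antibodies. CBX7 and RING1B are subunits of Polycomb repressive complex 1 (PRC1). Controls for these precipitations (anti-HA in parental cells, and IgG) were not used here.

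Libraries were alike in breadth: 11102 to 11310 genes reached 1 FPKM (fragments per kilobase of transcript after scaling to library size), and low values placed the relative depth of the libraries between 0.953 and 1.13 of that of shCtl 1. Cbx6, the targeted gene, was at 17.4 and 14.9 FPKM in shCtl, against 9.53 and 5.40 FPKM in shCbx6. The 2 groups did not overlap, and the lowest value was that of shCbx6 replicate 2 (log2 difference -1.06, SE 0.26, limma adjusted p = 0.247). ESC markers were abundant in every library, with summed FPKM of Pou5f1, Sox2, Nanog, Zfp42, Esrrb and Klf4 of 2502 and 2718 in shCtl and 1979 and 1920 in shCbx6. Of these 6, Klf4 (2.90-fold), Nanog (1.72-fold) and Esrrb (1.64-fold) were past 1.5-fold lower in shCbx6 with no overlap, and their part in the differences of the pathway genes was not tested.

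In control ESCs, the members ranged from under 1 FPKM to 534 FPKM. Of the 46 genes, 26 had a mean of at least 1 FPKM in shCtl and 20 were under 1 FPKM, beside 52.0% of all symbols under 1 FPKM. Of the 26, 13 were at 10 FPKM or more and 13 between 1 and 10 FPKM. Tdgf1, the Nodal co-receptor, was the highest member at 517 and 534 FPKM. The Nodal antagonists followed, with Lefty1 at 76.7 and 47.6 FPKM and Lefty2 at 62.9 and 39.5 FPKM. Their ranges overlapped, so their order could not be told apart, and reads from these near-identical paralogs may have been lost under unique mapping.

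Among the Nodal and TGF-beta ligands, 4 of 8 were at 1 FPKM or more. Gdf3, a Nodal-related ligand of pluripotent cells, measured 38.6 and 39.8 FPKM, and Nodal itself 30.5 and 34.8 FPKM. Inhbb, which encodes the activin beta B chain, came next at 20.2 and 15.6 FPKM, and Tgfb1 stood at 1.77 and 2.95 FPKM. Inhba, Tgfb2, Tgfb3 and Gdf11 were all under 1 FPKM. A single BMP ligand was well transcribed: Bmp4, at 22.4 and 20.7 FPKM, against at most 0.411 FPKM in a shCtl library for the other BMP ligands. Bmp7, the next of them, measured 0.411 and 0.389 FPKM, and Bmp5 was listed at 0 in all 4 libraries.

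Receptors and SMADs were mostly transcribed. Among receptors, 8 of 11 reached 1 FPKM. After Tdgf1, the highest was Bmpr1a, a BMP type I receptor, at 15.9 and 17.7 FPKM. Bmpr1b, Tgfbr2 and Tgfbr3 were under 1 FPKM, with the TGF-beta type II receptor Tgfbr2 at 0.301 and 0.364 FPKM beside its type I partner Tgfbr1 at 7.20 and 6.98 FPKM. Smad4, the common SMAD, led its class at 25.4 and 28.7 FPKM, followed by the inhibitory Smad7 at 15.4 and 12.1 FPKM. Smad6, the other inhibitory SMAD, was the only one under 1 FPKM. All 4 Id genes were above 1 FPKM, from Id1 at 27.3 and 46.3 FPKM to Id4 at 1.89 and 1.93 FPKM. The secreted antagonists outside the Lefty pair (Nog, Chrd, Grem1, Fst and Cer1) did not exceed 1.42 FPKM, the value of Fst in shCtl 1. The plot of levels by library shows this range within most classes.

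**Figure D1:**
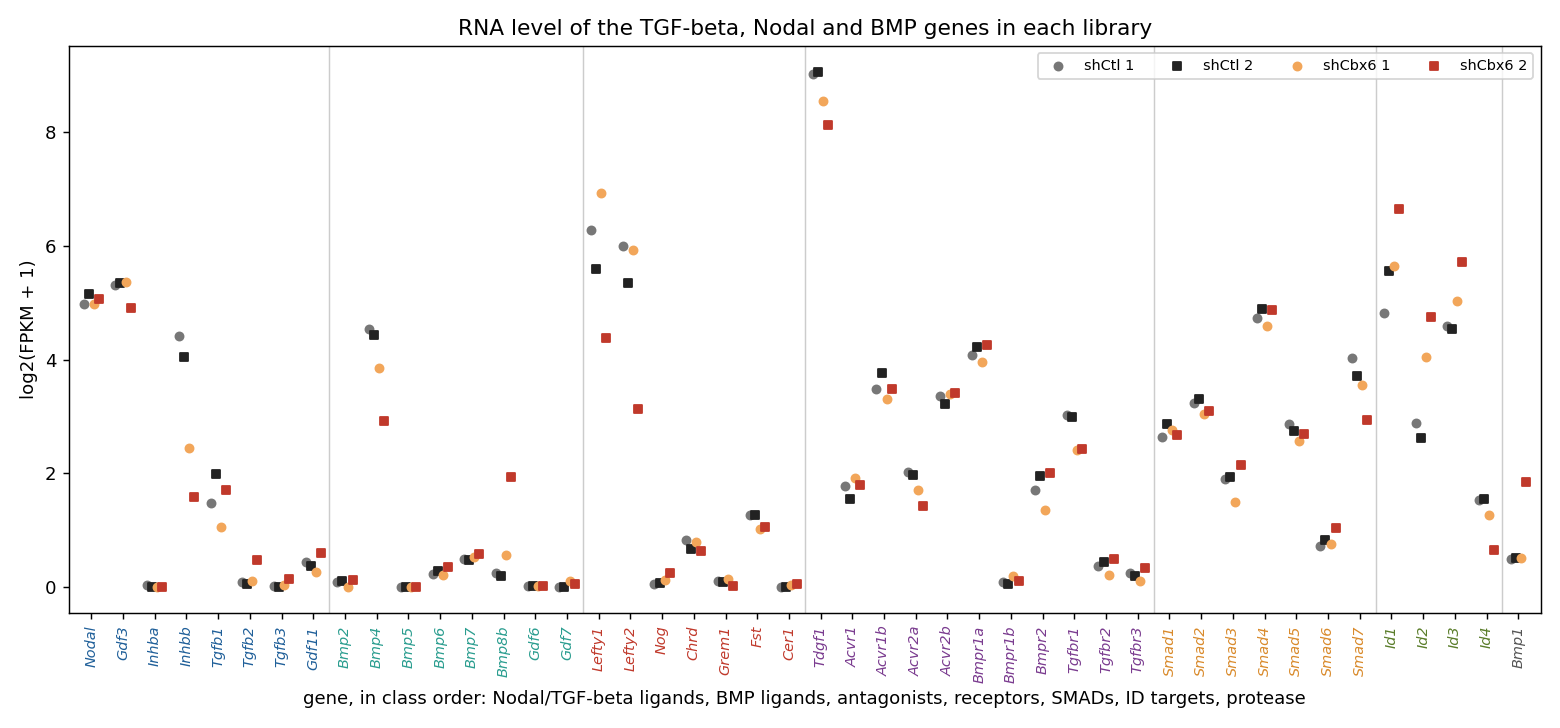
RNA level of the 46 genes, in class order, as log2(FPKM + 1) on the vertical axis; each point is 1 library (grey and black, shCtl; orange and red, shCbx6). Tdgf1 is highest in every library, most BMP ligands lie near 0, and Inhbb, Bmp4 and Id2 have both shCbx6 points apart from both shCtl points.

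To ask which of these genes carry Polycomb proteins, peaks were assigned to a gene when they overlapped, by at least 1 bp, the gene or the 2.5 kb before its start. CBX6-HA replicate 1 had a peak at 40 of the 46 genes (87.0%), but at 56.9% of all 21910 genes with coordinates, and its list of 21865 peaks was the longest. The other lists were more selective. CBX6-HA replicate 2 (5103 peaks) had a peak at 30 members (65.2%, beside 16.6% of all genes), CBX7 (5081 peaks) at 25 (54.3%, beside 17.9%) and RING1B (4180 peaks) at 27 (58.7%, beside 16.1%). The 4 lists met at 22 members, 47.8% beside 11.5% of all genes. Just 3 members had no peak in any list, 6.52% beside 40.1% of all genes, namely Bmp5, Cer1 and Smad5.

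Within 2.5 kb of an annotated start, the counts were 40, 29, 25 and 27 in the same order, beside 53.3%, 15.3%, 16.7% and 15.1% of all genes, and the same 22 members had a start-site peak in all 4 lists (10.6% of all genes). Smad4 alone lost its CBX6-HA replicate 2 peak under this rule, since that peak lay in an intron 9278 bp from the nearest start. The median width of the members' start-site peaks was 2854 bp for CBX7 and 3012 bp for RING1B.

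The classes differed in how often the 4 lists coincided. BMP ligands had peaks in all lists at 6 of 8 genes (Bmp2, Bmp6, Bmp7, Bmp8b, Gdf6 and Gdf7). Nodal and TGF-beta ligands did so at 4 of 8 (Inhba, Tgfb1, Tgfb2 and Tgfb3), and antagonists at 4 of 7 (Nog, Chrd, Grem1 and Fst). The share was lower for receptors, at 3 of 11 (Bmpr1b, Tgfbr2 and Tgfbr3), and for SMADs, at 2 of 7 (Smad3 and Smad6), while Id3, Id4 and Bmp1 completed the 22. Gdf11 had peaks of CBX6-HA replicate 2, CBX7 and RING1B and none of CBX6-HA replicate 1. These class counts were not tested.

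Fst, which encodes the activin-binding follistatin, held the highest CBX6-HA replicate 2 score among members, 2536, in a peak of 4279 bp on mm9 (chr13:115244942-115249220) that covered the start. A second peak of that list, with a score of 1373, lay directly upstream (chr13:115249262-115251432), and CBX7 and RING1B each overlapped both with 1 peak, of 5669 and 5873 bp. These scores come from MACS (a significance on a scaled log10 p scale) and were not compared between lists. The value 3100 recurred, although the CBX7 and RING1B lists held scores up to 3221 and 3233. Bmp7, a BMP ligand, had the widest member peak, of CBX7, 9030 bp at chr2:172758721-172767750, from an intron across the start. For RING1B, 7 members (Bmp2, Bmp6, Gdf6, Gdf7, Nog, Grem1 and Fst) shared the score of 3100. CBX7 scores were 3100 for the same genes except Nog, so genes tied at 3100 had no order. Bmp7 scored 3116 for CBX7. Bmp6 led CBX6-HA replicate 1 with 566.8 at chr13:38436011-38439571.

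**Figure D2:**
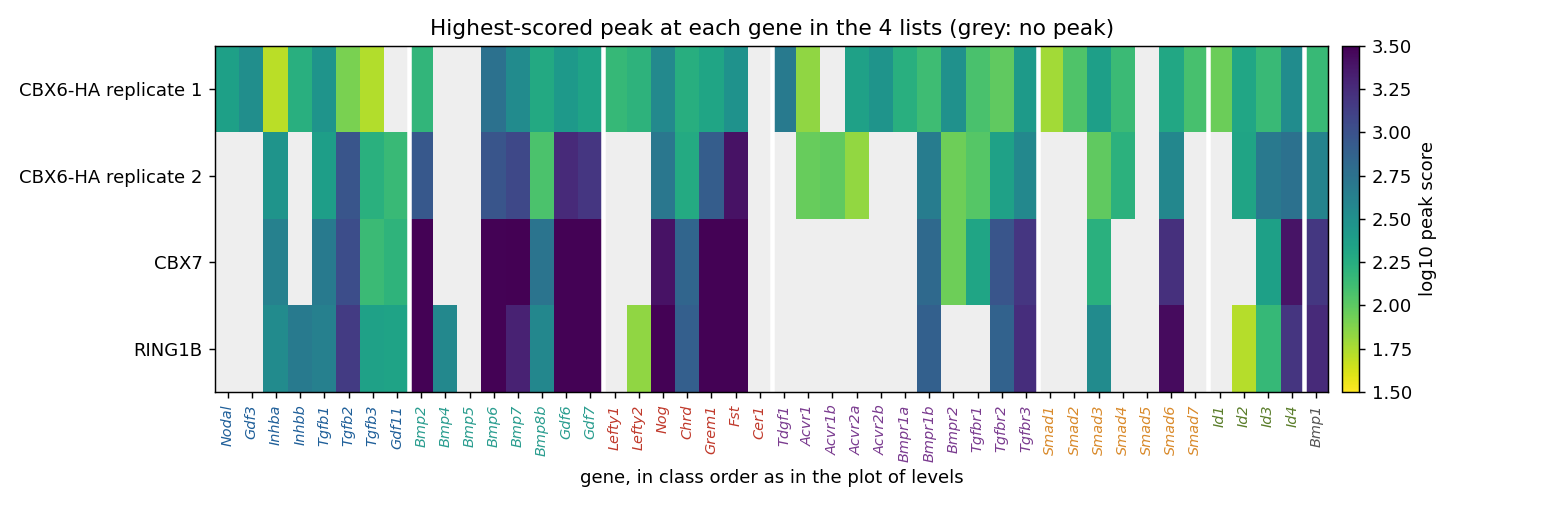
Highest-scored peak at each of the 46 genes (horizontal axis, class order) in the 4 lists (rows), coloured by log10 of the MACS score, with grey where a list has no peak at the gene. BMP ligands other than Bmp4 and Bmp5 are filled in all 4 rows, whereas Nodal, Gdf3, Lefty1, Tdgf1 and 6 further genes are filled in the CBX6-HA replicate 1 row alone.

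At 10 members CBX6-HA replicate 1 was the only list with a peak, beside 38.1% of all genes with peaks of that list alone: Nodal, Gdf3, Lefty1, Tdgf1, Acvr2b, Bmpr1a, Smad1, Smad2, Smad7 and Id1. Several of the most abundant transcripts of the set were among them. Tdgf1 had the highest score of the group, 476.5 at chr9:110848267-110851152 over its start, and Nodal had 3 such peaks, at chr10:60877329-60879478 upstream, at chr10:60880194-60882008 over the start and at chr10:60885654-60886648 in the gene. A further 3 members had CBX6-HA replicate 2 peaks at the start and neither CBX7 nor RING1B, the type I receptors Acvr1 and Acvr1b and the type II receptor Acvr2a.

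RING1B without CBX7 marked 4 members, and all 4 were transcribed, at 5.77 (Id2) to 51.2 FPKM (Lefty2) in shCtl on average. Inhbb had a RING1B peak of 3045 bp with a score of 482.5 over its start (chr1:121316675-121319719), together with 3 CBX6-HA replicate 1 peaks. Bmp4 had RING1B as its sole peak, with a score of 370.9 at chr14:47007916-47010001 just inside the gene. At Lefty2 the RING1B peak was weak (score 68.2, chr1:182824235-182825624) and lay 996 bp downstream of a start. Id2 combined a low RING1B score of 53.0 (chr12:25779146-25780741) with peaks in both CBX6-HA replicates. Over the whole table, 294 genes had a RING1B start-site peak without one of CBX7, with a median of 2.85 FPKM and 38.1% under 1 FPKM. The reverse, CBX7 without RING1B, held for the receptors Bmpr2 and Tgfbr1. Among all genes it held at start sites for 648, with a median of 1.37 FPKM and 45.7% under 1 FPKM. Inhbb, Bmp4 and Lefty2 were also the 3 members with RING1B but no CBX6-HA replicate 2 peak.

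Members with RING1B and CBX7 start-site peaks were mostly at low levels in shCtl. The 23 members with both RING1B and CBX7 had a median of 0.197 FPKM, with 18 under 1 FPKM. The 17 members with neither had a median of 11.4 FPKM, and just Bmp5 and Cer1 of these were under 1 FPKM. Id3 was the highest of the doubly marked genes at a mean of 22.6 FPKM. Split by RING1B alone, the medians were 0.333 FPKM (27 members) and 8.81 FPKM (19 members), and over all genes they were 0.217 FPKM (3306 genes, 70.4% under 1 FPKM) and 1.81 FPKM (18604 genes, 46.5% under 1 FPKM). The difference among all genes thus had the same direction. For CBX6-HA replicate 2 the member medians were 0.400 FPKM with a peak and 17.9 FPKM without, beside 0.309 and 1.58 FPKM over all genes. CBX6-HA replicate 1 did not show this split: its member medians were 2.27 FPKM with a peak (40 members) and 3.16 FPKM without (6 members), and over all genes those with a peak were higher, at 6.27 against 0.0156 FPKM. No test was made of these splits, and the ChIP-seq and RNA-seq samples were separate.

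**Figure D3:**
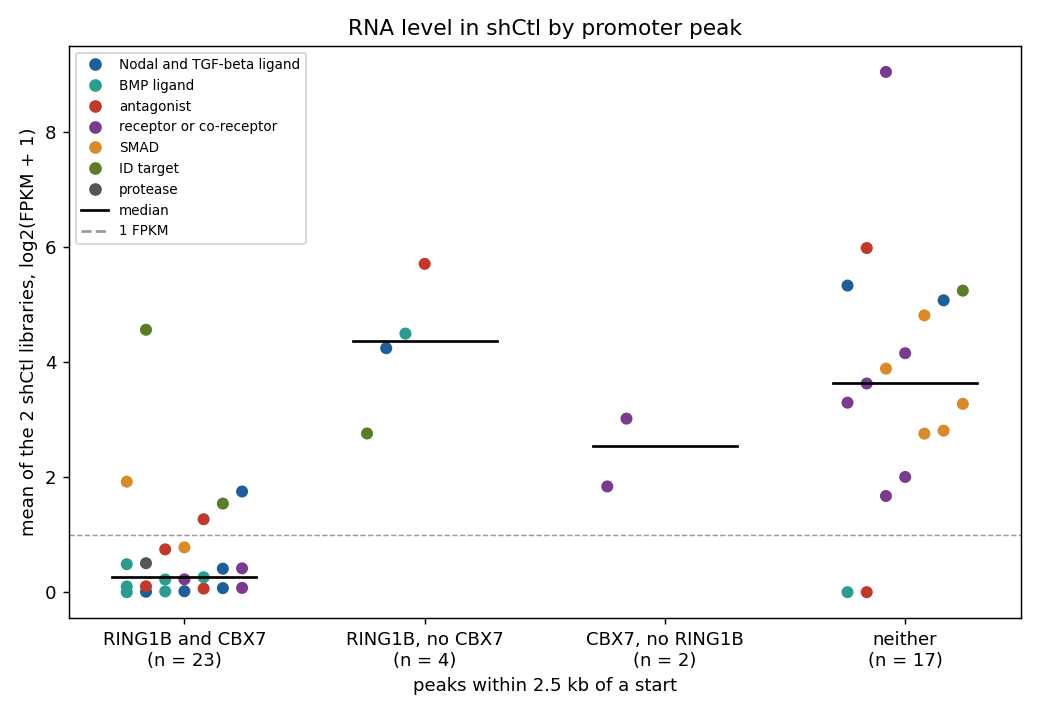
Mean FPKM of the 2 shCtl libraries as log2(FPKM + 1), with 1 point per gene coloured by class, for members grouped by RING1B and CBX7 peaks within 2.5 kb of a start; black lines are medians and the dashed line is 1 FPKM. The 4 genes with RING1B and no CBX7 all lie above the dashed line, at 5.77 to 51.2 FPKM.

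Start regions of 5 members are printed to show the sequence under these peaks and at genes without CBX7 or RING1B. They are the 250 bases before the RefSeq start of the GRCm38.p6 annotation, placed on mm9 by exact match, read 5′ to 3′ on the gene's strand, with CpG in capitals. Windows were printed only where they lay outside the gene as annotated on mm9, which held for 23 of the 31 members with an entry. Among these, Gdf7 and Grem1 had the highest CBX6-HA replicate 2 scores with peaks in all 4 lists, Id4 is an ID gene with peaks in all 4 (chosen after its values were seen), and Tdgf1 and Nodal were the highest-expressed members with neither CBX7 nor RING1B. The windows lie at chr12:8308761-8309010, minus strand (Gdf7), chr2:113598806-113599055, minus (Grem1), chr13:48356235-48356484, plus (Id4), chr9:110848663-110848912, minus (Tdgf1), and chr10:60880470-60880719, plus (Nodal).
Gdf7: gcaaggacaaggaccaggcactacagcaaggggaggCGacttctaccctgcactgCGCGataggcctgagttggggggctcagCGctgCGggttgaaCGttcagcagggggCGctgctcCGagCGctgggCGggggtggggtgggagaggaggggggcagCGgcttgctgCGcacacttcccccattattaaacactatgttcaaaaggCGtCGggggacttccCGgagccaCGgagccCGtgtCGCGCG
Grem1: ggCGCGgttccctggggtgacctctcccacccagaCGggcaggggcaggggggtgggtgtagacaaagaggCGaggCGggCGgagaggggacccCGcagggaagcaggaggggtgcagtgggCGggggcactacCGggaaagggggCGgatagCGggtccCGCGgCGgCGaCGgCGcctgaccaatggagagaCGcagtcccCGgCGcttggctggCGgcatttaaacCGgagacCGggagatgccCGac
Id4: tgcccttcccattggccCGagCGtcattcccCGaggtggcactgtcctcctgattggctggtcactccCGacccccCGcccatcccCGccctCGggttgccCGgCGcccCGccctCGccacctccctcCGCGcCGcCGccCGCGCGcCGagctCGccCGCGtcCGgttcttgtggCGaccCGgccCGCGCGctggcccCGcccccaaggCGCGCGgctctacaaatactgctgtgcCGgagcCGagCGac
Tdgf1: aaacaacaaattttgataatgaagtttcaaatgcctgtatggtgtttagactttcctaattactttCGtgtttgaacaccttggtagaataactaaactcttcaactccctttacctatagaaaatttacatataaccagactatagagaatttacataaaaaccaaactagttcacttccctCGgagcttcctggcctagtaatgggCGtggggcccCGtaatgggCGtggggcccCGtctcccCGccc
Nodal: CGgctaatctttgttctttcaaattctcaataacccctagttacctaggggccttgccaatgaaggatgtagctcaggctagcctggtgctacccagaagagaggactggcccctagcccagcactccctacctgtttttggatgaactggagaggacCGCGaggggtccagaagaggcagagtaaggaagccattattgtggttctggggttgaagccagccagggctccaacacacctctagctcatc

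Id4 held 35 CpG in its 250 bases, Grem1 24 and Gdf7 20, against 7 at Tdgf1 and 3 at Nodal. The windows of Gdf7, Grem1 and Id4 were overlapped by peaks of all 4 lists, and those of Tdgf1 and Nodal by CBX6-HA replicate 1 alone. This contrast did not extend to the whole set. Of 46 members, 31 had an entry of 300 bases (250 before to 50 after the start). Their median observed over expected CpG ratio was 0.735 in the 18 with a RING1B start-site peak and 0.885 in the 13 without. Over 27025 genes it was 0.389. All 31 windows were kept here, including those inside the annotated gene. A RING1B peak near any annotated start counted, so a window need not lie under that peak. The ratio ran from 0.286 (Bmpr1b) to 0.988 (Id4) with RING1B and from 0.229 (Nodal) to 1.14 (Acvr2a) without. The motif GGCGCC, a palindrome associated with BMP-responsive SMAD sites, occurred in 4 of the 18 and 5 of the 13 windows, 29.0% of all 31, beside 12.0% of all windows. The shorter CAGAC, which contains the core SMAD-binding letters, occurred on either strand in 8 of the 18 and 5 of the 13, 41.9% of the 31, beside 49.7%. Matches of the 2 motifs can share 1 base at an edge, and a match is a description of the sequence only. No entry was available for Gdf3, Tgfb3, Bmp2, Bmp7, Gdf6, Lefty1, Lefty2, Nog, Fst, Tgfbr3, Smad2, Smad4, Smad7, Id1 and Bmp1.

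The knockdown comparison asked which members differed in RNA level between shCbx6 and shCtl. Id1, Id2, Id3, Bmp8b and Bmp1 were higher in shCbx6 and Inhbb, Bmp4, Tdgf1, Tgfbr1, Smad7, Acvr2a and Id4 lower, each with a mean ratio of at least 1.5 and groups that did not overlap. With 2 libraries in each group, no member reached an adjusted p under 0.05 in limma (on log2(FPKM + 1), over the 11577 genes whose mean was 1 FPKM or more in at least 1 group). The test covered 28 of the 46 members, while 18 stayed under the filter. Since Bmp8b and Bmp1 passed it through shCbx6 alone and Id4 through shCtl alone, these 3 had to differ to some degree.

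By the ratio of mean FPKM, 5 of the 28 were at least 1.5-fold higher (17.9%, beside 7.64% of all genes tested) and 8 at least 1.5-fold lower (28.6%, beside 6.56%). Among the 25 members that reached 1 FPKM in both groups, 3 were higher (Id1, Id2 and Id3, 12%, beside 5.11% of the 10860 such genes) and 7 lower (28%, beside 5.15%). Adding that the groups not overlap left 5 higher (beside 6.36%) and 7 lower (25.0%, beside 5.92%). Without a fold rule, 7 members had both shCbx6 values above shCtl (25.0%, beside 18.9%) and 11 had both below (39.3%, beside 24.3%). The balance differs with no filter on low values, where 15 of 45 members were above (33.3%, beside 20.6%) and 11 below (24.4%, beside 20.2%), and 11 were at least 1.5-fold higher (24.4%, beside 20.1%) and 10 lower (22.2%, beside 12.7%). In limma, 0 of 28 were called (beside 0.0432% of all genes called higher and 0.0518% lower), the lowest adjusted p was 0.103, and 7 had an unadjusted p under 0.05, 2 of them higher (beside 5.12%) and 5 lower (beside 6.54%). The median log2 difference was -0.18 over the 28 and -0.01 over all genes tested. An exact permutation test of 2 against 2 libraries cannot go below p = 0.333.

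The shCbx6 libraries differed from each other at many members. Between the 2 shCbx6 libraries, 14 of 28 members differed at least 1.5-fold (50.0%, beside 16.5% of all genes), against 4 of 28 between the shCtl libraries (14.3%, beside 9.85%). Without shCbx6 replicate 2, 2 of 26 members tested were at least 1.5-fold higher in place of 5 (Id2 and Lefty1, beside 5.52% of all genes). Of the 7 members named as lower, only Inhbb, Bmp4 and Tgfbr1 were then still past 1.5-fold, while Tdgf1 was 1.41-fold, Acvr2a 1.32-fold, Smad7 1.28-fold and Id4 1.35-fold lower. Without shCtl replicate 1, Acvr2a and Smad7 also fell short of 1.5-fold, as did Acvr2a with libraries scaled to a common median. Without shCbx6 replicate 1, limma called 7 of 29 members tested, Inhbb, Bmp4 and Lefty2 lower (beside 1.12% of 11699 genes) and Id2, Id3, Bmp8b and Bmp1 higher (beside 2.27%). Bmp8b and Bmp1 passed the filter only through the shCbx6 library that was left, and so had to differ to some degree. With the same libraries, 11 in place of 7 members were above shCtl without overlap (beside 42.0%). The cause of the difference between the shCbx6 libraries was not tested.

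**Figure D4:**
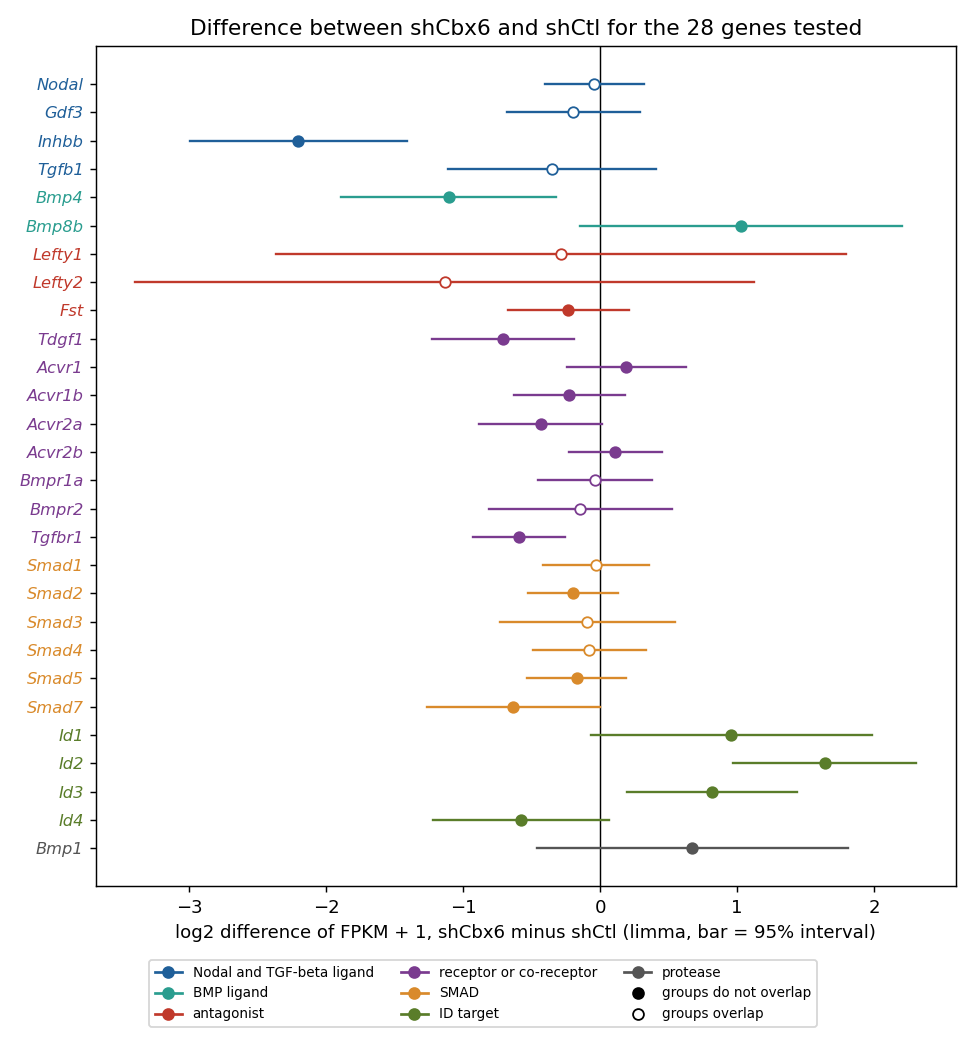
Log2 difference of FPKM + 1, shCbx6 minus shCtl, for the 28 genes tested; points are limma estimates over 2 libraries a group, bars are 95% intervals, colours are classes, and filled points mark groups that do not overlap. Inhbb lies farthest below 0 at -2.21 and Id2 farthest above at 1.64, and the 2 Lefty genes have the widest bars.

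Inhbb, the activin beta B chain, had the lowest ratio of the ligands tested. It measured 20.2 and 15.6 FPKM in shCtl, against 4.47 and 2.02 FPKM in shCbx6, so that both depleted libraries lay well below both controls. Its mean was 5.52-fold lower (log2 difference -2.21, SE 0.31, limma adjusted p = 0.103). Nodal, the ligand of the autocrine loop, showed no separation of the groups, with 30.5 and 34.8 FPKM in shCtl, against 30.6 and 32.7 FPKM in shCbx6. The 95% interval of its log2 difference ran from -0.40 to 0.32. Gdf3 measured 38.6 and 39.8 against 40.2 and 28.9 FPKM, with 1 depleted library above and 1 below the controls. Tgfb1 overlapped as well, at 1.77 and 2.95 against 1.07 and 2.25 FPKM. The other 4 ligands of this class stayed at or under 0.517 FPKM in every library.

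Bmp4, the transcribed BMP ligand, measured 22.4 and 20.7 FPKM in shCtl, against 13.4 and 6.59 FPKM in shCbx6. All depleted values were below the controls, by 2.16-fold in the mean (log2 difference -1.11, SE 0.31, limma adjusted p = 0.291), and the log2 difference was -0.65 without shCbx6 replicate 2. Bmp8b, a ligand known from the germline and extra-embryonic tissue, went from 0.188 and 0.142 FPKM to 0.473 and 2.83 FPKM. It was above the controls in both depleted libraries but passed 1 FPKM in shCbx6 2 alone (log2 difference 1.03, SE 0.47, limma adjusted p = 0.482), and its close paralog Bmp8a can share reads with it. The remaining BMP ligands did not exceed 0.502 FPKM in any library.

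Among the antagonists, the Lefty genes spread more than any other tested member. Lefty1 measured 76.7 and 47.6 FPKM in shCtl, against 121 and 19.7 FPKM in shCbx6, and the 2 depleted libraries lay on opposite sides of the controls. Lefty2 measured 62.9 and 39.5 FPKM against 60.3 and 7.78 FPKM, with an overlap of the groups although its mean was 1.51-fold lower. The SEs of their log2 differences were 0.82 and 0.89. Fst was the only other antagonist tested, at 1.42 and 1.40 against 1.02 and 1.08 FPKM (log2 difference -0.23, SE 0.17, limma adjusted p = 0.678). Nog, which encodes noggin, was at most 0.187 FPKM, and Chrd did not reach 1 FPKM.

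Tdgf1, whose product lets Nodal engage its receptors, had 517 and 534 FPKM in shCtl, against 372 and 277 FPKM in shCbx6. Its groups did not overlap and its mean was 1.62-fold lower (log2 difference -0.71, SE 0.20, limma adjusted p = 0.299), with the reservation that processed copies of this gene can compete for uniquely mapped reads. Tgfbr1, a type I receptor, measured 7.20 and 6.98 against 4.35 and 4.39 FPKM. Here the 2 depleted libraries were nearly equal, 1.62-fold lower in the mean (log2 difference -0.59, SE 0.13, limma adjusted p = 0.221). Acvr2a, an activin type II receptor, measured 3.09 and 2.92 against 2.28 and 1.68 FPKM (1.52-fold lower, log2 difference -0.43, SE 0.18, limma adjusted p = 0.438). The other activin type II receptor, Acvr2b, was above the controls, at 9.28 and 8.33 against 9.50 and 9.67 FPKM. Acvr1 was also above and Acvr1b below the controls in both depleted libraries, each by less than 1.5-fold. The BMP receptor Bmpr1a overlapped between groups, at 15.9 and 17.7 against 14.6 and 18.2 FPKM, with an interval of -0.45 to 0.38. The median log2 difference of the 8 receptors tested was -0.18.

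The tested SMADs were within 1.5-fold apart from Smad7. Smad7, a feedback inhibitor of the receptors, measured 15.4 and 12.1 FPKM in shCtl, against 10.7 and 6.63 FPKM in shCbx6, without overlap (1.59-fold lower, log2 difference -0.63, SE 0.25, limma adjusted p = 0.425). Smad4 overlapped, at 25.4 and 28.7 against 23.0 and 28.3 FPKM, with an interval of -0.49 to 0.33. Smad2 and Smad5 were below the controls in both depleted libraries by less than 1.5-fold, and Smad1 and Smad3 overlapped.

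Of the 4 ID genes, Id1, Id2 and Id3 were past 1.5-fold higher with no overlap (beside 6.36% of all genes tested) and Id4 lower (beside 5.92%), and Id4 passed the filter through shCtl alone and so had to differ to some degree. Without shCbx6 replicate 2 only Id2 remained past 1.5-fold: Id1 was then 1.33-fold and Id3 1.41-fold higher, and Id4 1.35-fold lower. Id2 measured 6.39 and 5.14 FPKM in shCtl, against 15.4 and 25.9 FPKM in shCbx6. Each depleted library was far above each control, and the mean was 3.58-fold higher (log2 difference 1.64, SE 0.26, limma adjusted p = 0.125). Id1 measured 27.3 and 46.3 against 49.1 and 99.7 FPKM, where the lowest depleted value was close to the highest control value (2.02-fold higher, log2 difference 0.96, SE 0.41, limma adjusted p = 0.456). Id3 measured 23.0 and 22.2 against 31.8 and 51.7 FPKM (1.85-fold higher, log2 difference 0.82, SE 0.25, limma adjusted p = 0.314). Id4, the least abundant, went the other way, with 1.89 and 1.93 against 1.41 and 0.571 FPKM (1.93-fold lower, log2 difference -0.58, SE 0.26, limma adjusted p = 0.472). The protease Bmp1, which cleaves chordin and procollagens, measured 0.415 and 0.420 FPKM in shCtl, against 0.426 and 2.58 FPKM in shCbx6, so its higher mean came from 1 library.

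The 12 members past 1.5-fold without overlap did not share one set of peaks. Bmp8b, Id3, Bmp1 and Id4 had start-site peaks in all 4 lists, the first 3 higher and Id4 lower in shCbx6. Inhbb and Bmp4 (lower) and Id2 (higher) had RING1B without CBX7, and Tgfbr1 (lower) had CBX7 without RING1B. The remaining Tdgf1, Acvr2a, Smad7 and Id1 had CBX6-HA peaks without either. Both CBX6-HA replicates marked Id2, Id3, Id4, Bmp8b, Bmp1, Tgfbr1 and Acvr2a.

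**Figure D5:**
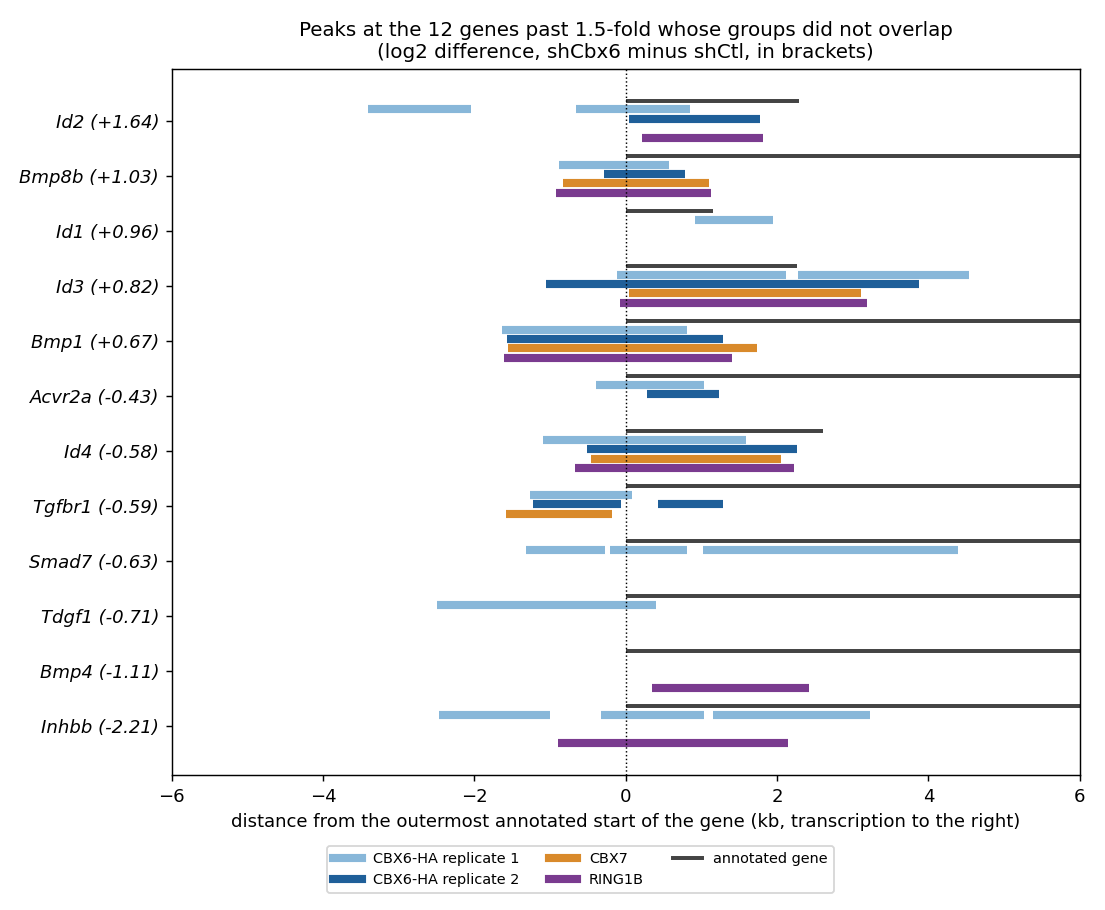
Peaks of the 4 lists at the 12 genes, by distance in kb from the outermost annotated start with transcription to the right, ordered by log2 difference; the dark line above each set is the annotated gene, clipped at 6 kb. Peaks of all lists cover the start at Bmp8b, Bmp1 and Id4. At Id3 the CBX7 peak begins 46 bp after the start, while the other lists cover it. Bmp4 has a RING1B bar alone and Id1 one CBX6-HA replicate 1 bar near its end.

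A second list of 63 further genes of the pathway (other ligands, modulators, SMAD regulators and targets) was read the same way. Of these, 29 were tested, 5 were at least 1.5-fold higher (17.2%, beside 7.64% of all genes) and 3 at least 1.5-fold lower (10.3%, beside 6.56%). Among them limma called 0, with 8 at an unadjusted p under 0.05, 4 higher (beside 5.12%) and 4 lower (beside 6.54%). Ctgf, a matricellular target of TGF-beta, had 4.22 and 4.04 FPKM in shCtl, against 13.8 and 22.7 FPKM in shCbx6 (log2 difference 1.87, SE 0.25, limma adjusted p = 0.0977). Skil, a SMAD co-repressor, and Gdf1 were also higher without overlap, although Gdf1 passed the filter through shCbx6 alone and so had to differ to some degree. Tgfbi, another TGF-beta target, went from 3.59 and 3.28 to 0.881 and 0.303 FPKM (log2 difference -1.50, SE 0.23, limma adjusted p = 0.12), and since it passed the filter through shCtl alone it had to differ to some degree. Pmepa1, a feedback inhibitor, and the secreted Fstl1 were lower without overlap. The median log2 difference of the 29 was 0.09.

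Markers of other cell types were low in all libraries, and some were higher in shCbx6. The 5 trophectoderm markers (Cdx2, Elf5, Tfap2c, Gata3 and Hand1) summed to 2.95 and 2.35 FPKM in shCtl, against 7.85 and 11.9 FPKM in shCbx6, mostly from Tfap2c at 7.41 and 9.04 FPKM in shCbx6. The 5 neuroectoderm markers summed to 4.35 and 3.70 against 7.91 and 5.43 FPKM, with Neurog2 listed at 0 in every library. These did not move together, since Pax6 and Nes were higher in shCbx6 while Sox1 went from 2.14 and 2.40 to 0.767 and 0.287 FPKM. Per-library sums of the 6 fibroblast markers ran from 1.69 to 1.72 FPKM in shCtl and from 1.37 to 4.67 FPKM in shCbx6. Thy1 made up most of these, at 1.68 and 1.64 against 1.16 and 3.82 FPKM. Sums of the 6 primitive endoderm markers ran from 1.76 to 1.95 and from 1.69 to 2.64 FPKM. Those of the 5 mesoderm markers ran from 1.76 to 2.63 and from 2.39 to 3.02 FPKM. The part of these in the differences of the pathway genes was not tested, and in bulk RNA fewer cells of a type and less RNA per cell cannot be told apart.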

How the data were processed

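The members and gene lists were chosen with earlier results of these data known. RNA-seq covered 4 libraries and ChIP-seq 4 peak lists. Per the study's methods, the authors mapped RNA reads to mm9 with TopHat, keeping reads with 1 place, and ran Cufflinks; the deposited FPKM are per gene symbol, and how transcripts were combined is not given in the sources used here. The authors mapped ChIP reads with Bowtie and called peaks per sample with MACS (shift size 75 bp); the deposited peak score follows MACS, and the control of each call is not given.

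From these, 25 of 23290 table entries carrying dates in place of symbols were dropped. Genes whose mean reached 1 FPKM in shCtl or shCbx6 were tested with limma 3.58.1 (R 4.3.3; trend, Benjamini-Hochberg) on log2(FPKM + 1), which understates differences of low genes, beside the 1.5-fold rule of the study, which has no error rate. FPKM are relative to each library, the deposited values hold no read counts, and 2 libraries a group limit the precision. Gene starts came from the GENCODE annotation of mm9, with 21149 symbols matched by name and 761 by synonym, whereas the authors used RefSeq. Same-numbered libraries deviated together with a correlation of 0.266 over 11577 genes, with only 2 pairs, so replicate numbers were not used as pairs. Named genes were members past 1.5-fold without overlap, the 2 highest of each class in shCtl, and Nodal, Lefty1, Lefty2, Tdgf1, Gdf3, Bmp4 and the Id genes. Alternatives changed the filter, scaling, pseudocount, fold, peak score, overlap and window, and left out libraries. Scripts were tested on simulated data.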

Additional observations from a re-analysis of the deposited data

How the results depend on the processing

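Of the 5 members at least 1.5-fold higher, the count was 11 with no filter, 3 with a filter of 5 FPKM and 3 when both same-numbered pairs had to pass (the replicate block), and it ran from 2 to 5 when 1 library was left out. Of the 8 lower, it was 5 with 1 FPKM added, 2 at a threshold of 2-fold and 3 under the replicate block, and from 6 to 9 with 1 library left out. The 6 without shCbx6 replicate 2 were Inhbb, Tgfb1, Bmp4, Bmpr2, Tgfbr1 and Smad3, 3 of which are among the 8. Members above shCtl without overlap numbered 15 with no filter, 4 with a filter of 5 FPKM and from 7 to 11 with 1 library left out, an alternative chosen after seeing the data, and those below from 12 to 16. With the replicate block, limma called 2 members higher (Id1 and Id2) and 1 lower (Inhbb) among 388 genes, and 1 of the other pathway genes higher and 3 lower. The labels share only a number here, so this is no measure of pairing. With 1 library left out, limma called 0 to 4 members higher and 0 to 3 lower, and 0 to 2 and 0 to 3 of the other pathway genes; a group left with 1 library is assumed to vary like the other. These calls arose without shCbx6 replicate 1. The cause was not tested.

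With 1 library left out, the log2 difference changed sign for Nodal (from -0.13 to 0.049, and 0.0045 without shCbx6 replicate 1), Gdf3 (-0.43 to 0.037, the latter without shCbx6 replicate 2), Lefty1 (-1.57 to 0.99, the latter without shCbx6 replicate 2, and 0.051 without shCtl replicate 1), Lefty2 (-2.54 to 0.27, the latter without shCbx6 replicate 2), Bmpr1a (-0.19 to 0.11, and 0.037 without shCtl replicate 2) and Smad4 (-0.22 to 0.066, and 0.0051 without shCtl replicate 2). The ranges also crossed 0 for Bmpr2 (-0.47 to 0.18), Smad1 (-0.15 to 0.089) and Smad3 (-0.43 to 0.24). Leaving out shCbx6 replicate 2 or replicate 1 gave -0.65 or -1.57 for Bmp4, -0.32 or -0.94 for Smad7, -0.29 or -0.58 for Acvr2a, 0.45 or 1.46 for Id1, 0.48 or 1.16 for Id3 and -0.27 or -0.89 for Id4. Without replicate 1, Bmp8b was at 1.72 and Bmp1 at 1.34. Bmp8b and Bmp1 were not tested without shCbx6 replicate 2. Peak counts stayed within 1.5 times under every alternative run for them, and the count of members at 1 FPKM or more in shCtl was 26 throughout.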
